A study of Mus musculus with 20 samples.

Results

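The genes of MHC class II antigen presentation were followed across 5 organs of WT and Nsun6-KO mice. The 10 members are H2-Aa, H2-Ab1, H2-Eb1, Cd74, Ciita, H2-DMa, H2-DMb1, H2-DMb2, H2-Oa, and H2-Ob. They were found by symbol among the 55401 genes of the count table, and each symbol matched 1 row. MHC class II molecules present peptides from the endocytic pathway to CD4+ T cells. They are known for their high levels on B cells, dendritic cells, and macrophages, and epithelial cells such as those of the intestine can also carry them under interferon-gamma. In class II biology, the alpha and beta chains pair with the invariant chain, cathepsins cut the invariant chain down, the DM molecule exchanges what remains of it for a peptide, and the DO molecule holds DM back, mainly in B cells.

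RNA-seq was performed on 5 organs (heart, kidney, liver, small intestine, and spleen), with 2 WT and 2 KO libraries per organ and 20 in all. The mice were 8-week-old females of the C57BL/6J background. In the KO, CRISPR/Cas9 had removed exons 3 and 4 of Nsun6, which encodes a methyltransferase that writes m5C on RNA. The labels name genotype and tissue and no other treatment. RNA came from ground tissue, so each library mixes all cell types of its organ. The replicates are described as biological, and neither the labels nor the methods say whether the organs of a replicate came from the same animal. The p-values set a difference against the spread between these libraries, estimated from 2 per group with information shared over genes. Tests between organs treat the libraries as independent, which the labels do not settle.

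Total counts per library ranged from 15897446 in heart KO replicate 1 to 44508197 in liver KO replicate 2. Levels are given in RPKM, the reads on a gene per kilobase of its exons, scaled to the TMM-adjusted size of each library. Nsun6 itself had between 80 and 338 counts in each library, and in CPM it was lower in each KO than in each WT library of the heart, kidney, and liver but not of the small intestine or spleen. This count covers all exons of the gene and not the deleted ones alone, so it does not check the genotype labels.

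The organ labels were set against defining markers first. The summed level of enterocyte genes was at least 9131 RPKM in each small intestine library and at most 304 RPKM elsewhere. Kidney tubule and podocyte genes summed to at least 23238 RPKM in the kidney against at most 50.9 RPKM elsewhere, and cardiomyocyte genes to at least 12822 RPKM in the heart against at most 87.0 RPKM elsewhere. B cell genes summed to between 1045 and 1619 RPKM in the spleen, above the highest value of any other organ, 155 RPKM. Albumin stood at 65297 RPKM or more in the liver. Each organ therefore carried the genes of its label.

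Some libraries stood apart from their group. The 4 small intestine libraries fell into 2 pairs by replicate number rather than genotype. Fabp6, the ileal bile acid-binding protein, was at 14218 and 13071 RPKM in WT and KO replicate 1 and at 0.497 and 0.861 RPKM in WT and KO replicate 2, whereas Pdx1, a transcription factor of the duodenum, was at 0 counts in both replicates 1 and at 43.2 and 30.2 RPKM in replicates 2. Replicates 1 thus held genes of the distal and replicates 2 genes of the proximal small intestine, which the labels do not mention. Small intestine KO replicate 1 also held heart muscle transcripts, with 87.0 RPKM for the cardiomyocyte list against 1.78 to 4.32 RPKM in the other small intestine libraries. Spleen WT replicate 2 held liver transcripts, with albumin at 1146 RPKM against 1.57 to 58.0 RPKM in the other spleen libraries, and spleen KO replicate 1 held Kap, a kidney androgen-regulated gene, at 47.9 RPKM. The B cell list summed to 19.4 RPKM in heart WT replicate 2 and to between 6.2 and 6.66 RPKM in the other heart libraries.

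Of the members, 8 lie in the MHC on chromosome 17 of GRCm38, from 34092340 to 34316674, and Ciita lies on chromosome 16, from 10480059 to 10528418. Class II promoters are known for an X box, which RFX proteins bind, and a Y box, which NF-Y binds, and the transactivator CIITA acts through both. For 7 of the 9 members looked up, RefSeq gave a promoter window of GRCm38.p6 from 250 bases before to 50 bases after the gene start, and for H2-Ab1 and Ciita it gave none. Stretches of 110 bases that end 41 bases before the start are shown for 5 genes of different expression patterns. Capitals mark the letters AGNAACNNATG of an X box and GATTGG of a Y box on the strand of the gene.
H2-Eb1, chr17:34305717-34305826, plus strand: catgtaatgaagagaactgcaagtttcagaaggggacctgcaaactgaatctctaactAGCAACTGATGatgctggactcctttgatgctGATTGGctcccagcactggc
H2-DMb1, chr17:34153041-34153150, plus strand: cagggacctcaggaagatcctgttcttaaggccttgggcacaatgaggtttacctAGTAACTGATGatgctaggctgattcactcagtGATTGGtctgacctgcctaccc
H2-DMb2, chr17:34145099-34145208, plus strand: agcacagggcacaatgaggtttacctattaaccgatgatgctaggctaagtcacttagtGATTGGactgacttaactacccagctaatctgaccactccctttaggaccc
H2-Ob, chr17:34238755-34238864, plus strand: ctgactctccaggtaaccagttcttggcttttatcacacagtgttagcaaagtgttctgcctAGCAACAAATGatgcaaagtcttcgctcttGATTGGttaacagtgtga
H2-Aa, chr17:34287864-34287973, minus strand: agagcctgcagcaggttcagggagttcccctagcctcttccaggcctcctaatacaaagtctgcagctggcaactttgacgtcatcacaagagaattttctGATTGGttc

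The Y box letters were present in 7 of the 7 members with a window, against 16.1% of 32851 mouse promoters searched on both strands. The X box letters were found in H2-Eb1, H2-DMb1, and H2-Ob, upstream of the Y box letters in each, against 0.895% of all promoters. Both occurred together in 0.134% of them. The promoters of the paralogs H2-DMb1 and H2-DMb2, aligned on the Y box letters, shared 54 of 60 bases, and the stretch of H2-DMb2 at the place of the X box letters differs from the pattern searched. The X box letters are those that the H2-Eb1, H2-DMb1, and H2-Ob promoters share, with N where they differ, so that their presence in these 3 genes is not a finding. The letters of both boxes were chosen after the promoters had been read, and a match is a description of the sequence only.

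The classical chains and the invariant chain were highest in the spleen and lowest in the liver. H2-Aa, which encodes the alpha chain of the A molecule, stood at 668 and 554 RPKM in WT and 553 and 440.0 RPKM in KO spleen. Liver values were 14 RPKM in both WT libraries and 9.43 and 16.1 RPKM in KO. The 4 spleen libraries lay above all 16 others, and the organ means were 554 ± 93.1 in the spleen, 139.7 ± 111 in the small intestine, 44.3 ± 20.96 in the kidney, 35.2 ± 21.5 in the heart, and 13.4 ± 2.84 RPKM in the liver (SD, n = 4 each). H2-Ab1, its beta chain partner, followed the same order of organs, with means of 263 ± 30.7 RPKM in the spleen, 91.8 ± 61.2 in the small intestine, 32.3 ± 14.6 in the kidney, 22.5 ± 8.81 in the heart, and 8.98 ± 1.26 in the liver.

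H2-Eb1 encodes the beta chain of the E molecule. Its mean was 562 ± 136 RPKM in the spleen, where it was 699 and 575 RPKM in WT and 601 and 374 RPKM in KO, and 10.01 ± 1.89 RPKM in the liver. C57BL/6 mice are known to lack a working H2-Ea gene for its alpha chain partner, and H2-Ea had between 0 and 8 counts in each of the 20 libraries. H2-Eb1 was thus counted at the level of H2-Aa in the spleen while the gene of its partner was near 0. Cd74, the invariant chain, had a mean of 530 ± 100.1 RPKM in the spleen and 19.8 ± 5.38 RPKM in the liver, and its kidney and heart means of 46.3 ± 20.95 and 44.8 ± 11.2 RPKM lay within their spread.

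**Figure D1:**
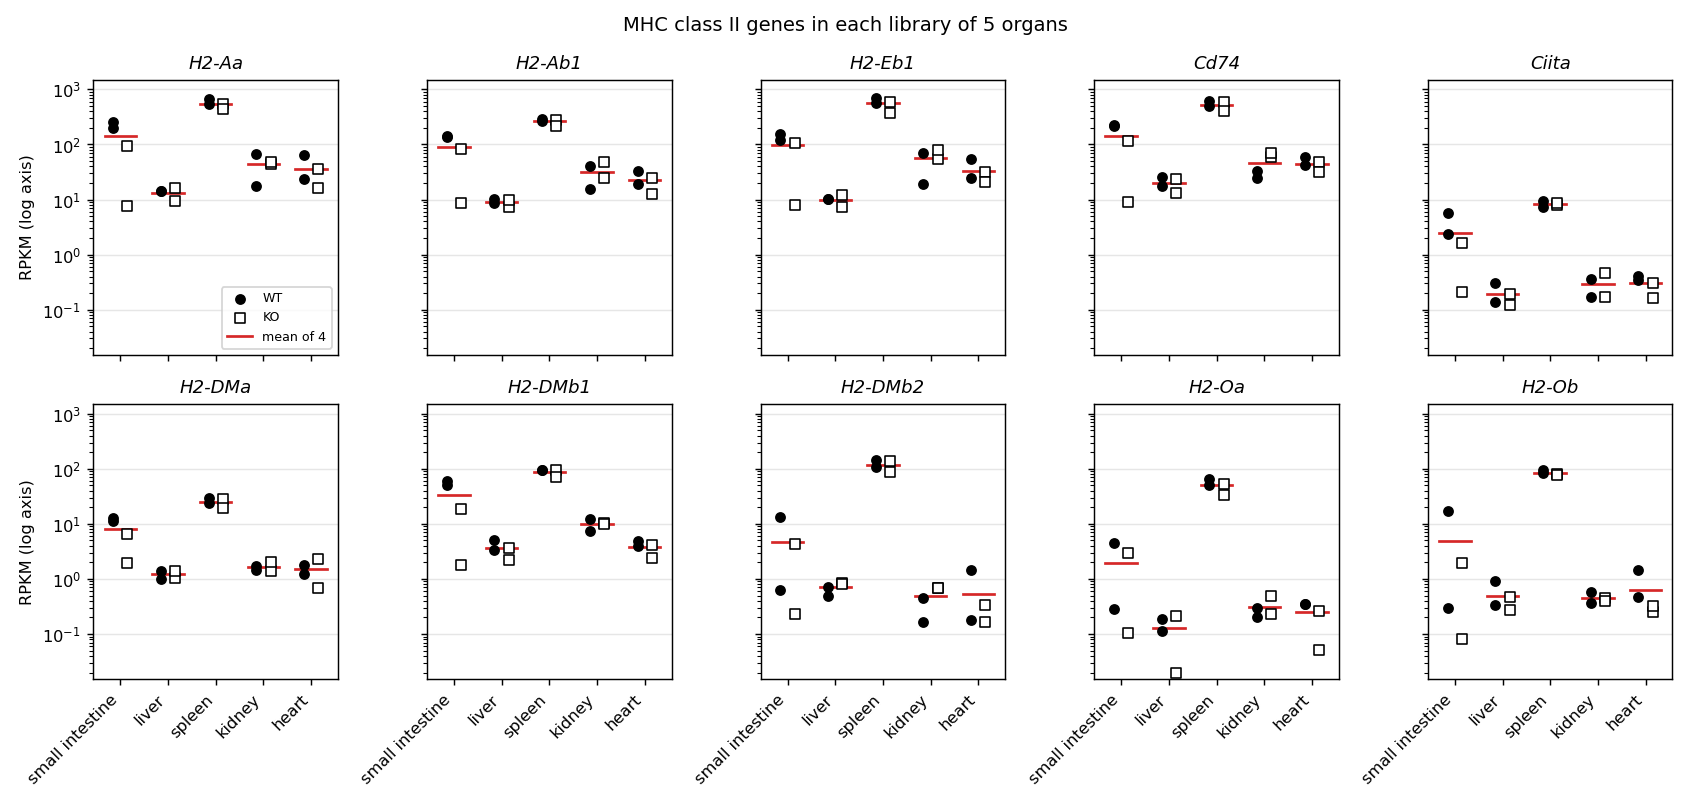
Level of each of the 10 members in RPKM on a log axis, with filled circles for the 2 WT and open squares for the 2 KO libraries of each organ and a red line for the mean of the 4. H2-Oa had 0 counts in liver KO replicate 1 and is drawn at the lower edge. The spleen lies highest in every panel, and the small intestine libraries spread most.

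Ciita, the transactivator of class II genes, was the member with the lowest level in the spleen. It stood at 9.40 and 7.19 RPKM in WT and 7.86 and 8.77 RPKM in KO spleen, and between 0.122 and 0.464 RPKM in the liver, kidney, and heart. In the small intestine the values ran from 0.209 RPKM in KO replicate 1 to 5.80 RPKM in WT replicate 1. Those of the liver, kidney, and heart overlapped.

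The DM genes fell into separate patterns. H2-DMa, the DM alpha chain, had a mean of 25.5 ± 4.59 RPKM in the spleen, 8.13 ± 4.94 in the small intestine, and between 1.21 and 1.67 RPKM in the other organs. H2-DMa overlaps Brd2 on the opposite strand, and since the stored counting command names no strand, reads in the overlap could be lost. The same holds for Ciita, which overlaps Dexi (up to 918 counts), H2-Oa, which overlaps BC051537 (up to 56), and H2-Eb1, which overlaps Gm20513 (up to 161), all on the opposite strand, and for Cd74, which overlaps Mir5107 (up to 513) on its own strand. H2-DMb1, a DM beta chain, had means of 88.8 ± 12.6 RPKM in the spleen, 32.8 ± 27.2 in the small intestine, 10.01 ± 2.07 in the kidney, 3.85 ± 1.02 in the heart, and 3.58 ± 1.13 in the liver.

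H2-DMb2, the other beta chain gene, was at 143 and 106 RPKM in WT and 139 and 86.7 RPKM in KO spleen. Outside the spleen it exceeded 2 RPKM only in small intestine WT replicate 1, at 13.5 RPKM, and KO replicate 2, at 4.34 RPKM. The ratio of H2-DMb2 to H2-DMb1 was between 1.12 and 1.5 in the spleen libraries and between 0.0125 and 0.374 in the 16 other libraries, with no overlap. H2-DMb1 and H2-DMb2 are paralogs of similar sequence, and how reads that fit both were counted makes this ratio uncertain.

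**Figure D2:**
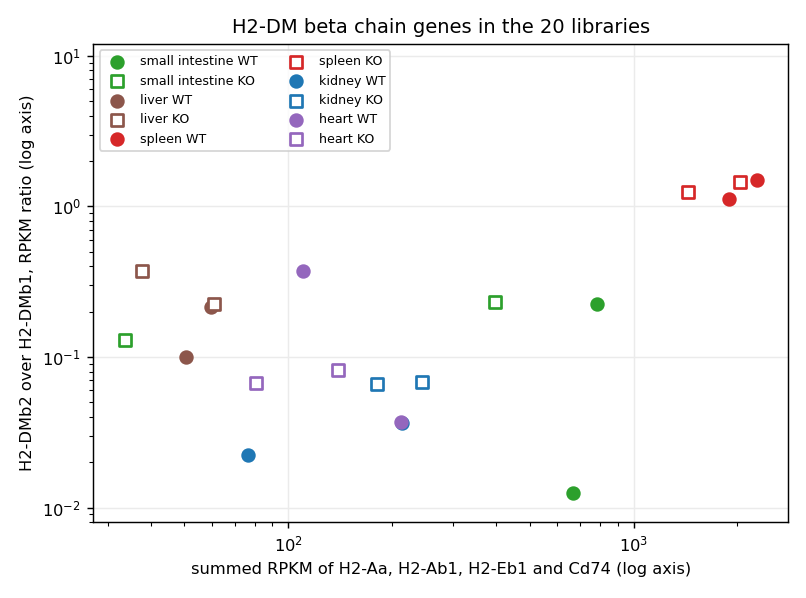
Ratio of H2-DMb2 to H2-DMb1 in RPKM against the summed RPKM of H2-Aa, H2-Ab1, H2-Eb1, and Cd74, both on log axes, with 1 point per library (filled for WT, open for KO, colour for the organ). Small intestine WT replicate 2 combines a high sum of 668 RPKM with the lowest ratio, 0.0125, and the points of kidney WT replicate 2 and heart WT replicate 1 overlap.

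The DO genes were highest in the spleen and low in the liver, kidney, and heart. H2-Oa, the DO alpha chain, was at 65.6 and 51.5 RPKM in WT and 54.0 and 34.1 RPKM in KO spleen. H2-Ob, the DO beta chain, was at 95.4 and 85.3 RPKM in WT and 79.0 and 78.3 RPKM in KO spleen. Both were under 2 RPKM in all libraries of the liver, kidney, and heart. H2-Oa had 0 counts in liver KO replicate 1, where 3 counts, the floor used here, would be 0.103 RPKM.

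Against the small intestine, the spleen mean was between 2.71-fold (H2-DMb1) and 5.84-fold (H2-Eb1) higher for the classical chains, Cd74, Ciita, H2-DMa, and H2-DMb1. For H2-DMb2, H2-Oa, and H2-Ob it was 25.5-fold, 26.4-fold, and 17.3-fold higher. Small intestine WT replicate 1 decided the size of these ratios, which without it were 68.5, 46.0, and 108.8, and 5.92 in place of 3.32 for Ciita. Leaving out each small intestine library in turn, the lowest ratio of the 3 genes was 13.1 and the highest of the other 7 was 7.24. Against the median of the other 4 organ means, the ratio was between 9.61 (H2-Ab1) and 27.8 (Ciita) for the first 7 genes and 189, 182, and 149.8 for H2-DMb2, H2-Oa, and H2-Ob. That median was 0.629, 0.281, and 0.564 RPKM for these 3 genes and 0.299 RPKM for Ciita, so that their ratios rest on low levels. Bulk libraries cannot tell apart fewer cells of a type and less RNA per cell.

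**Figure D3:**
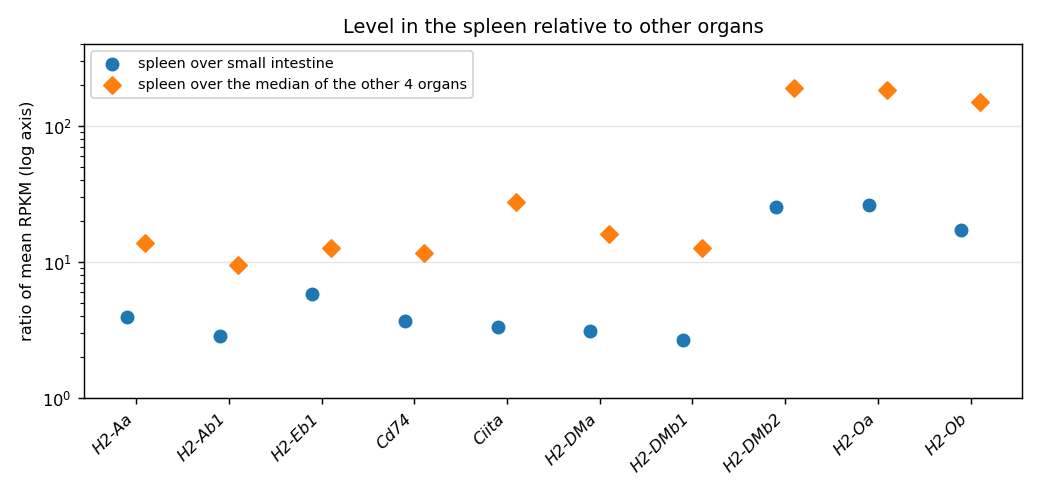
Ratio of the mean RPKM in the spleen to that in the small intestine (circles) and to the median of the other 4 organ means (diamonds) for each member, on a log axis. H2-DMb2, H2-Oa, and H2-Ob stand at 17.3 or more and at 149.8 or more, above the other 7 members on both ratios, and without small intestine WT replicate 1 the 3 circles would stand at 46.0 or more. The diamonds of these 3 genes rest on medians of 0.629, 0.281, and 0.564 RPKM, and that of Ciita on 0.299 RPKM.

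To compare organs, all 20 libraries entered a single edgeR model in which WT and KO weighed the same. The model took 1 estimate of the spread per gene for all organs, although the small intestine libraries spread most. Its p-values and intervals therefore do not follow each organ's own spread. Genes were called where the fold change exceeded 2 and the p adjusted by the Benjamini-Hochberg method was below 0.1. Of the 100 combinations of 10 members and 10 organ pairs, 78 were called. All 10 members were higher in the spleen than in the liver, kidney, and heart, where 29.7%, 24.1%, and 27.5% of the 23159 genes tested were called higher in the spleen. The 10 were also higher in the spleen than in the small intestine, where this share was 25.4%. For H2-Aa the liver lay below the spleen by -5.36 on the log2 scale (standard error 0.72), with an adjusted p of 2.7e-05 in edgeR's quasi-likelihood test. H2-Oa had 4, 5, 0, and 8 counts in the liver libraries and between 2039 and 4815 in the spleen, so that its fold against the liver is not given. Over the members, the median log2 fold change of the spleen was 3.78 against the kidney and 4.33 against the heart, and that over all genes was 0 and 0.14. In the fit of WT libraries alone, 5 of the 10 were called between small intestine and spleen. The share of all genes called was not computed for this fit, other settings, or fits that left out a library. A lower count there may not be particular to the members.

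The small intestine came second. All 10 members were higher there than in the liver, where 27% of genes were called higher in the small intestine, and higher than in the heart, with 27.7% of genes. In the fit of WT libraries alone, H2-Ob was not called against the heart (3.13, adjusted p = 0.118 in edgeR's quasi-likelihood test). Against the kidney, 9 of 10 were higher, with 23.2% of genes, and for H2-Eb1 the log2 difference was 0.68 (standard error 0.59), at an adjusted p of 0.361 in edgeR's quasi-likelihood test. H2-Aa was close to the threshold there, at 1.29 (standard error 0.61, adjusted p = 0.0956 in the same test). With the replicate block H2-Aa was not called (1.28, adjusted p = 0.108 in the same test), and 8 of 10 were. Without small intestine KO replicate 2, H2-Aa was at -0.047. These counts depended on single libraries. Without small intestine KO replicate 2, the count fell to 2 against the kidney, 3 against the heart, and 7 against the liver, and without WT replicate 1 to 5, 6, and 8. Without kidney WT replicate 1 it was 4 against the kidney, and without kidney KO replicate 1 or KO replicate 2 it was 5.

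Differences among the kidney, heart, and liver were smaller. H2-Aa, H2-Ab1, H2-Eb1, and H2-DMb1 were lower in the liver than in the kidney (4 of 10, with 21.1% of genes called lower in the liver), with H2-Eb1 at -2.45 on the log2 scale (standard error 0.62), at an adjusted p of 0.00605 in edgeR's quasi-likelihood test. The classical chains and Cd74 were lower in the liver than in the heart (4 of 10, with 24.8% of genes), and this count fell to 0 without liver WT replicate 1, liver WT replicate 2, liver KO replicate 1, or heart WT replicate 1. Without liver KO replicate 2 or heart KO replicate 1 it was 1, and without heart KO replicate 2 or small intestine WT replicate 2 it was 2. For the liver against the kidney, the count was 2 without liver WT replicate 2, liver KO replicate 1, or kidney WT replicate 2. In the fit of WT libraries alone, H2-Aa in the liver was called against neither the kidney nor the heart. It was at -1.64 and -1.65, with adjusted p of 0.142 and 0.108 in edgeR's quasi-likelihood test. Between kidney and heart, 1 of 10 was called (19.9% of genes were higher in the kidney). It was H2-DMb1, at 1.40 on the log2 scale (standard error 0.49), with an adjusted p of 0.034 in the same test, and it was not called without heart KO replicate 2. For Cd74 the kidney and heart differed by -0.05, with a 95% interval from -1.12 to 1.02.

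The spread among libraries of 1 organ was widest in the small intestine. The highest library exceeded the lowest by a median of 30.8-fold over the members there, against 1.52-fold in the spleen. The 4 small intestine libraries held H2-Aa at 261 and 196 RPKM in WT replicates 1 and 2 and at 7.70 and 94.7 RPKM in KO replicates 1 and 2. Cd74 was at 229 and 217 RPKM in WT and at 9.20 and 115 RPKM in KO. KO replicate 1 was thus the lowest small intestine library for each of the 10 members, and for H2-Aa and Cd74 it lay below each of the 4 liver libraries.

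H2-DMb2, H2-Oa, and H2-Ob followed another order than the classical chains. H2-Ob was at 17.2 RPKM in WT replicate 1, 0.295 in WT replicate 2, 0.0809 in KO replicate 1, and 1.95 in KO replicate 2. WT replicate 2 therefore held 35.3% of the mean spleen level of H2-Aa, 41.1% of that of Cd74, and 57.2% of that of H2-DMb1, but 0.349% of that of H2-Ob, 0.55% of that of H2-Oa, and 0.535% of that of H2-DMb2. In WT replicate 1 the shares were 47.1% for H2-Aa and 20.3% for H2-Ob.

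Of the marker lists, that of B cells followed the order of a class II group. The 12 B cell genes summed to 155 RPKM in WT replicate 1, 6.90 in WT replicate 2, 1.13 in KO replicate 1, and 31.1 in KO replicate 2, the order also seen for H2-DMb2, H2-Oa, and H2-Ob. Cd79b, a part of the B cell receptor, was the most abundant of the list in each, and Fcer2a was at 0 counts in WT replicate 2, with Cd79a, Fcer2a, and Cr2 at 0 counts in KO replicate 1. The 10 T cell genes summed to 62.2, 100.2, 7.85, and 72.9 RPKM in WT replicates 1 and 2 and KO replicates 1 and 2. The 10 dendritic cell genes summed to 7.34, 8.88, 1.48, and 12.6 RPKM and the 14 macrophage genes to 171, 172, 68.2, and 226 RPKM in the same order. The T cell sum was highest in WT replicate 2 and the dendritic cell and macrophage sums in KO replicate 2, so that none of these 3 sums had the order of the classical chains or of H2-DMb2, H2-Oa, and H2-Ob over the 4 libraries. The 21 interferon-induced genes summed to 359 and 483 RPKM in WT replicates 1 and 2 and to 116 and 261 RPKM in KO replicates 1 and 2, with Isg15 the most abundant in each library. All 21 had negative log2 fold changes in KO against WT, with a median of -1.02, and none was called. KO replicate 1 was the lowest for each of these lists, while its 7 enterocyte genes summed to 13077 RPKM, between the 9131 and 14927 RPKM of the WT libraries. Their part in the class II values was not tested.

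**Figure D4:**
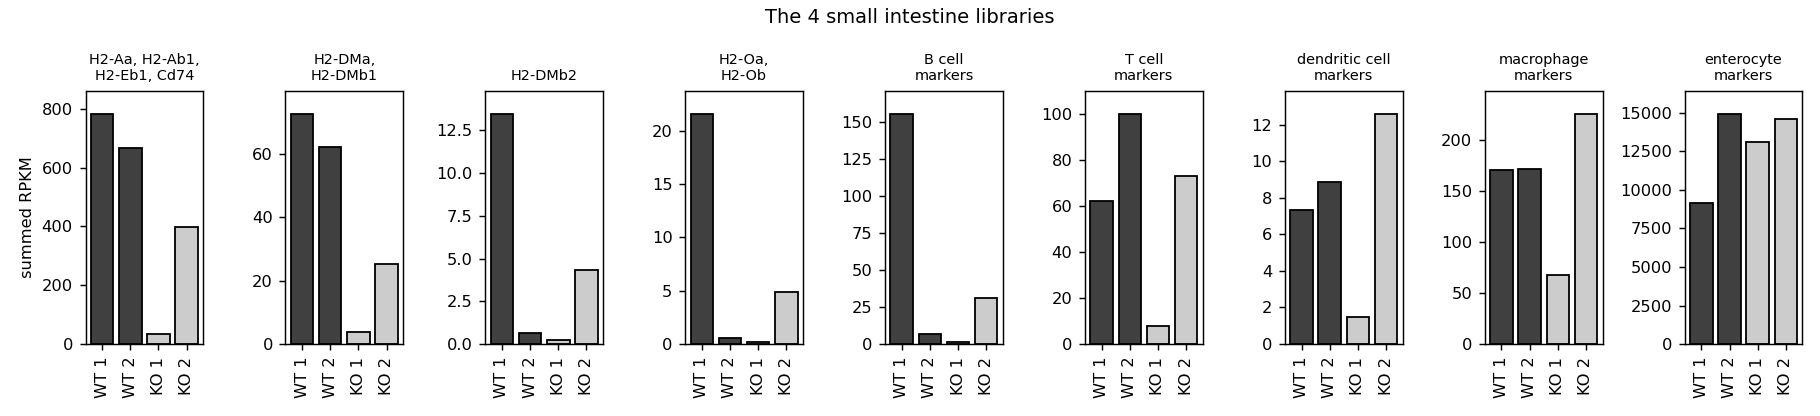
Summed RPKM of class II gene groups and of cell type marker lists in the 4 small intestine libraries (dark bars WT, light bars KO, replicates 1 and 2), each panel on its own linear axis from 0. KO replicate 1 is lowest for the class II genes and the leukocyte lists, and H2-DMb2, H2-Oa, H2-Ob, and the B cell list are near 0 in WT replicate 2.

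To ask whether the members differed along the intestine, replicates 2 were compared with replicates 1 in edgeR with genotype as a term. None of the 10 members was called, while 7.64% of 17680 genes were. Of the 10, 8 had a positive log2 fold change and 2 a negative one, with a median of 1.16, none had an unadjusted p under 0.05, and DESeq2 also called none. The 7 proximal markers were all called higher, as were 4.52% of genes, and the 6 distal markers all called lower, as were 3.11% of genes, with medians of 7.36 and -10.92. H2-Aa had a log2 fold change of 1.61 (95% interval from -1.95 to 5.18) and Cd74 one of 1.79 (from -1.40 to 4.98). Both turned to -0.85 and -0.46 without KO replicate 1 and to -0.51 and -0.057 without WT replicate 2, in fits without the genotype term. Without WT replicate 1, H2-Aa was at 4.30 and Cd74 at 4.24. Replicates 1 were then represented by KO replicate 1 alone, which is assumed to vary like the replicates 2. Calls in these fits depended on the library left out. They are not read as results, because 1 replicate number held a single library. The segment is known here from markers, not from labels.

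Other genes of the pathway were described from lists written by hand. Those for class II transcription hold 14 genes, of which 9 were called higher and 1 lower in the spleen than in the kidney, and 10 and 1 against the heart. In these comparisons 50.5% and 52.6% of all genes were called in either direction. Irf8, an interferon regulatory factor of B and dendritic cells, was between 21.4 and 25.6 RPKM in the spleen, between 5.56 and 22.2 RPKM in the small intestine, and at most 2.37 RPKM in the other organs. Rfxap, a subunit of the RFX complex that was singled out after its values were seen, stood between 3.15 and 8.42 RPKM in all 20 libraries. Rfxap was thus detected in the organs where Ciita was below 1 RPKM.

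Of 9 antigen processing genes, 2 were called higher and 2 lower in the spleen than in the kidney, where 50.5% of all genes were called. Ctss, the cathepsin that cuts the invariant chain in many antigen-presenting cells, was highest in the spleen, between 335 and 415 RPKM, and second in the small intestine, between 193 and 234 RPKM. It was at 193 RPKM in small intestine KO replicate 1, where H2-Aa was at 7.70 RPKM. Ctsl, another cathepsin, was between 123 and 151 RPKM in the liver and between 9.99 and 11.8 RPKM in the spleen. Ifi30, a thiol reductase of the endocytic pathway, had 64.9 and 134 RPKM in WT and 42.7 and 195 RPKM in KO small intestine.

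Of 10 genes of turnover and trafficking, 3 were called higher and 3 lower in the spleen than in the kidney, a share near the 50.5% of all genes called in that comparison. Marchf1, a ubiquitin ligase known to remove class II from the surface of B and dendritic cells, was between 10.99 and 17.3 RPKM in the spleen and at most 2.60 RPKM elsewhere. Cd83, which is known to oppose it, was between 40.5 and 67.4 RPKM in the spleen and at 16.7 RPKM in small intestine WT replicate 1, and at most 6.47 RPKM in all other libraries. The genes of class II receptors and costimulation, 8 in number, were all called higher in the spleen than in the kidney, liver, and heart, where the shares over all genes were 24.1%, 29.7%, and 27.5%. Cd86 was between 22.1 and 23.5 RPKM in the spleen and at most 3.71 RPKM elsewhere. H2-Eb2, another class II beta chain gene, was between 16.7 and 27.9 RPKM in the spleen and at 8.57, 0.14, 0.0428, and 1.82 RPKM in small intestine WT replicates 1 and 2 and KO replicates 1 and 2.

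Over the 20 libraries, the genes most like the mean log2 CPM of H2-Aa, H2-Ab1, H2-Eb1, and Cd74, among 12650 genes, were Spn (Pearson r = 0.946), Sh3bgrl3 (0.942), Pstpip1 (0.939), Slamf7 (0.937), and Coro1a (0.936). After centring on each organ, they were Lcp1 (0.953), Pstpip1 (0.948), Sting1 (0.936), Coro1a (0.933), and Arhgdib (0.932), and without the small intestine their r was between 0.714 and 0.894. Among the members, r was between 0.972 and 0.989 for pairs of the 4 genes themselves. H2-Aa correlated at 0.847 with H2-DMb2, 0.854 with H2-Ob, 0.912 with H2-Oa, and 0.916 with Ciita. These libraries share organs and sources, and the values are descriptions.

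The effect of Nsun6 loss was tested in each organ alone with edgeR's quasi-likelihood test. No member was called in any organ. In the small intestine all 10 had negative log2 fold changes, with a median of -1.76 against 0.00 over all genes, and 0% of 17680 genes were called. For 7 of the 10, the KO libraries were both under the lower WT library, as were 11.6% of all genes. For H2-Aa the log2 difference was -2.18 (95% interval from -5.47 to 1.11, standard error 1.23), at an adjusted p of 0.9999 in edgeR's quasi-likelihood test. Over the members the 95% intervals reached from -9.12 to 4.29, so that the missing calls do not show that the genotypes were alike. For H2-Aa, leaving out KO replicate 1 gave -1.28, and leaving out KO replicate 2 gave -4.99. None of the 10 had an unadjusted p under 0.05, and DESeq2 called none. The 12 B cell genes and the 10 T cell genes were likewise all negative, with medians of -2.86 and -1.20, and with none called. Their part in the class II values was not tested.

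In the spleen, 9 of the 10 members had negative log2 fold changes, from -0.37 to 0.05, with a median of -0.15 (-0.43 without KO replicate 1). None was called, against 0.223% of 18834 genes, none had an unadjusted p under 0.05, and DESeq2 called none. H2-Aa and H2-Ob were lower in both KO than in both WT libraries, a pattern shown by 14.4% of all genes. Over the members, the 95% intervals reached from -0.91 to 0.46, so that changes beyond these bounds were outside the interval of every member. H2-Aa differed by -0.26 on the log2 scale (standard error 0.17), at an adjusted p of 0.9999 in edgeR's quasi-likelihood test, and Cd74 by -0.12 (standard error 0.21), which was 0.017 without WT replicate 1 and 0.11 without KO replicate 2. Red cell precursor genes moved with genotype, with sums of 2539 and 3315 RPKM in WT and 4971 and 8062 RPKM in KO, and 4 of 8 were called higher in KO, against 0.218% of all genes. Of the 21 interferon-induced genes, 1 was called, higher in KO. It was Isg15, a ubiquitin-like protein, at 69.1 and 72.9 RPKM in WT and 175 and 159.6 RPKM in KO, with a log2 fold change of 1.27 and an adjusted p of 0.0711 in edgeR's quasi-likelihood test. The median over that list was 0.09. The 12 B cell genes summed to 1619 and 1351 RPKM in WT and 1354 and 1045 RPKM in KO. Their part in the class II values was not tested.

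Among the pathway lists, 1 gene was called in the spleen, where 0.218% of all genes were called higher in KO. Marchf8, a ubiquitin ligase related to Marchf1, was at 4.35 and 5.11 RPKM in WT and 11.1 and 10.9 RPKM in KO spleen. The log2 fold change was 1.25 (standard error 0.17, edgeR quasi-likelihood adjusted p = 0.0839). In the other organs Marchf8 lay between 7.97 and 20.9 RPKM. No gene of the lists for class II transcription, antigen processing, or receptors and costimulation was called in any organ.

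Liver levels were low in both genotypes. Of 9 members tested, 7 had negative log2 fold changes, and H2-Oa was left out as too low. None was called, against 0.0509% of 15729 genes, none had an unadjusted p under 0.05, and DESeq2 called none of the members it gave an adjusted p. H2-DMb2 was higher in both KO libraries, at 0.833 and 0.822 RPKM, than in the WT libraries, at 0.498 and 0.729 RPKM, as were 17.2% of genes. Cd74 was at 17.5 and 25.2 RPKM in WT and 13.4 and 23.2 RPKM in KO, so that the genotypes overlapped.

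Kidney values went mostly the other way. Of 9 members tested, 8 had positive log2 fold changes, with a median of 0.20 against -0.03 over all genes. None was called, and 0% of 17550 genes were. The 95% intervals of the members reached from -1.59 to 3.01. Cd74 alone had an unadjusted p under 0.05, and DESeq2 called no member. Cd74 was at 24.2 and 33.5 RPKM in WT and 58.6 and 69.0 RPKM in KO. The KO libraries lay above both WT libraries, as did those of H2-DMb2 and 10.3% of all genes. For Cd74 the log2 fold change was 1.12 (standard error 0.31, unadjusted p = 0.0131, adjusted p = 0.9999 in edgeR's quasi-likelihood test), and leaving out each library gave values from 0.92 to 1.37. H2-Aa was at 17.3 and 68.4 RPKM in WT and 43.9 and 47.5 RPKM in KO, and its log2 fold change of 0.08 turned to -0.59 without WT replicate 1. Without WT replicate 2, H2-Aa was at 1.37, in a fit where WT replicate 1 stood alone and the spread came from the KO pair. The calls of that fit are not read as results. WT replicate 1 was also lowest for the macrophage list, with sums of 71.7 and 136 RPKM in WT and 108 and 122 RPKM in KO. Of the kidney list, Kap was lowest in WT replicate 1, at 21299.9 RPKM against 36939.9 RPKM or more, whereas Slc34a1, a phosphate transporter of the proximal tubule, was highest there, at 898 RPKM against 111, 586, and 325 RPKM in WT replicate 2 and KO replicates 1 and 2. The part of these genes in the class II values was not tested.

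In the heart all 10 members had negative log2 fold changes, with a median of -0.65 against -0.01 over all genes. None was called, and 0% of 16632 genes were. H2-Ob alone had an unadjusted p under 0.05, and DESeq2 called no member. H2-Ob was at 0.474 and 1.47 RPKM in WT and 0.251 and 0.322 RPKM in KO. Its log2 fold change was -1.78 (standard error 0.61, unadjusted p = 0.0232, adjusted p = 1 in edgeR's quasi-likelihood test), and it was -0.73 without WT replicate 2. That library also had the highest sum of the B cell list, 19.4 RPKM against at most 6.66 RPKM in the other heart libraries, and its part in the H2-Ob value was not tested. The T cell genes tested in the heart were likewise all negative in KO against WT, from -3.35 to -0.085 on the log2 scale. None of them was called, and dendritic cell genes went both ways. The part of these genes in the class II values was not tested. Ciita, H2-Oa, and H2-Ob lay lower in both KO than in both WT libraries, as did 9.66% of genes. H2-Aa was at 64.9 and 23.6 RPKM in WT and 36.0 and 16.1 RPKM in KO. Replicates 1 were thus higher than replicates 2 in both genotypes, and their macrophage list sums were also higher, at 637 and 713 RPKM against 516 and 421 RPKM. Lyz2 made up the largest part, at 403 and 429 RPKM against 284 and 223 RPKM. The list did not move as a whole, and Cd163 was lower in replicates 1, at 4.66 and 5.49 RPKM against 9.14 and 11.1 RPKM. The part of this list in the H2-Aa values was not tested.

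**Figure D5:**
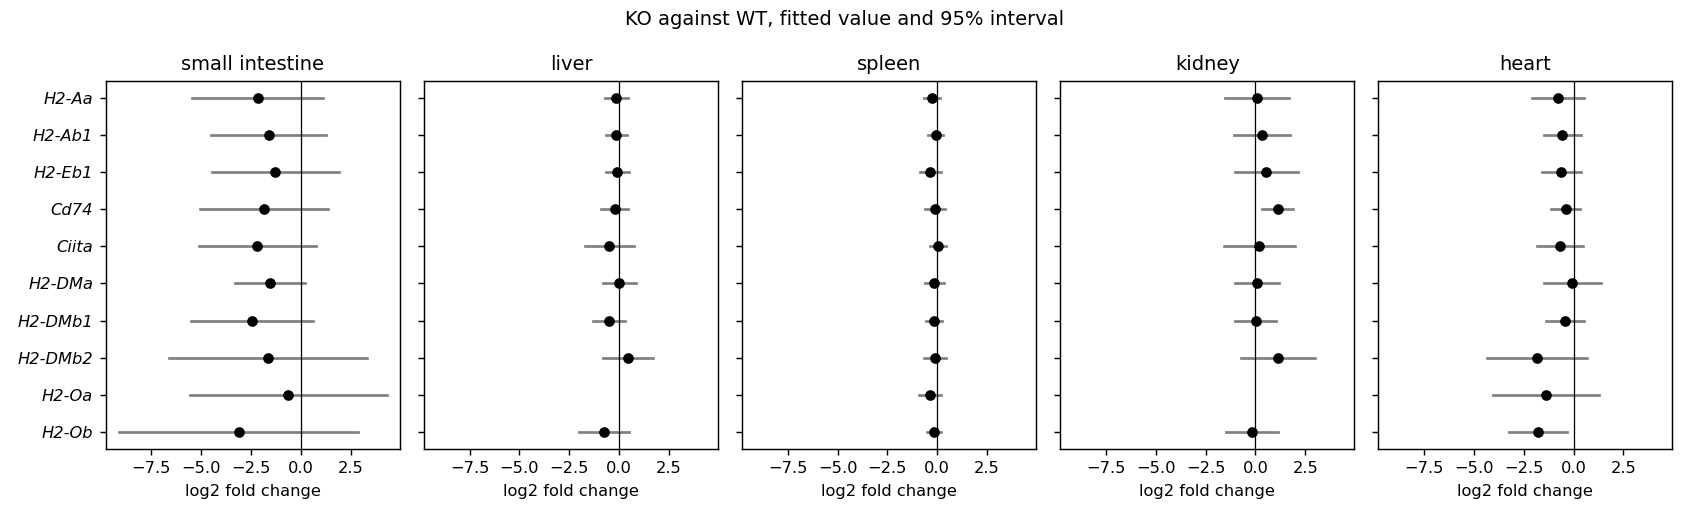
Fitted log2 fold change of KO against WT (points) with its 95% interval (bars) for each member in each organ, on 1 shared linear axis. Intervals are narrowest in the spleen and widest in the small intestine, and those of Cd74 in the kidney and H2-Ob in the heart do not reach 0. H2-Oa was not tested in the liver and kidney.

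Whether the genotype difference varied between organs was tested with an interaction of tissue and genotype over the 20 libraries. No member was called, 0% of 23159 genes were, and no member had an unadjusted p under 0.05. Cd74, which was lower in both KO libraries of the small intestine and higher in both of the kidney, had an unadjusted p of 0.128 and an adjusted p of 1 in edgeR's quasi-likelihood test. With no filter on low counts, 973 of 36620 genes were called, among them Cd74, Ciita, H2-DMb1, H2-DMb2, and H2-Ob. DESeq2's likelihood ratio test called 108 of the same 36620 genes and no member.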

How the data were processed

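RNA-seq libraries were made from 5 tissues of WT and Nsun6-KO mice with a kit that keeps strand. Per the submitters' processing notes, the authors used cutadapt, HISAT2 2.1.0, and featureCounts 2.0.1, and they deposited raw counts of reads per gene with the exon length of each gene (GRCm38, Ensembl 102). The stored counting command has no option for strand or read pairs, whereas the methods give strand and pair options, and mates were apparently counted separately, since 54.9% to 59.8% of counts between 10 and 50 were even in each library.

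Counts were analysed with edgeR 4.0.16 in R 4.3.3 (TMM scaling, its default filter on low counts, robust quasi-likelihood fits), and calls were made where the fold change exceeded 2 and p, adjusted by the Benjamini-Hochberg method, was below 0.1. Each KO comparison was fitted within its tissue, and organs were compared in 1 fit of 20 libraries. Standard errors were taken as the absolute log2 difference over the root of the F statistic. RPKM used TMM-scaled library sizes and the deposited exon length. Depth ranged from 15897446 to 44508197 counts per library. Replicates of each group differed by more than sampling noise. Alternatives were DESeq2 1.42.0, RLE size factors, other filters, no fold threshold, a replicate block, and leaving out each library.

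All 10 members were named. From the pathway and cell type lists, genes called in a comparison and the most abundant gene of a list could be named, and likeness took the 5 genes of highest r. The members and lists were chosen with earlier results of these data known. All 20 libraries were used.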

Additional observations from a re-analysis of the deposited data

How the results depend on the processing

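Of 100 combinations of member and organ pair, 78 were called, and other settings gave from 65 (at least 10 counts in every library, with 8 members and 80 combinations tested) to 80 (no filter on low counts). Shares of all genes called were not computed for these settings or for the fits that left out a library. Leaving out 1 library gave from 62, without small intestine KO replicate 2, to 80, without small intestine KO replicate 1, and the 40 calls that involve the spleen were kept in each of these fits. With the replicate block 77 were called, and the number of members called between KO and WT stayed at 0 in each tissue. The deviations of same-numbered libraries correlated at 0.57 for small intestine, 0.365 for heart, 0.126 for kidney, 0.0376 for liver, and 0.00707 for spleen libraries. In the small intestine, same-numbered libraries shared markers of a gut segment, and in the heart both replicates 2 were deeper (36090637 and 41763236 counts) than both replicates 1 (17959542 and 15897446 counts). The column names of both heart replicates 2, and of no other library, also carry the word pre. The labels do not say what a number stands for, and outside the small intestine 2 pairs per tissue do not settle whether the numbers pair the libraries.

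Leaving out 1 library, the count of members called between KO and WT ranged from 0 to 3 in the kidney and was 0 in the other tissues. Each of these fits left 1 genotype with a single library, and the share of all genes called was not computed. No conclusion about the members is drawn from these counts. The median log2 fold change of the members was -4.63 in the small intestine without KO replicate 2, -0.43 in the spleen without KO replicate 1, and 0.99 in the kidney without WT replicate 2. The log2 fold change of H2-Aa ranged from -0.56 to 0.18 in the liver, -0.59 to 1.37 in the kidney, and -1.45 to 0.16 in the heart, and that of Cd74 from -0.65 to 0.094 (without KO replicate 1) in the liver, where it was 0.081 without WT replicate 2, and from -0.43 to 0.11 in the spleen, where it was 0.017 without WT replicate 1. Between replicates 2 and 1 of the small intestine, fits with no genotype term, chosen after seeing the data, called from 0 to 7 members, with medians down to -0.82 without KO replicate 1 and up to 3.86 without WT replicate 1. Leaving out a library left 1 replicate number with a single library, and the share of all genes called was not computed. No conclusion about the members is drawn from these calls. H2-Aa was -0.51 and Cd74 -0.057 without WT replicate 2, and they were -0.85 and -0.46 without KO replicate 1. H2-Aa in the small intestine against the kidney ranged from -0.047 without small intestine KO replicate 2 to 2.005 without kidney WT replicate 2. The interaction called 5 members with no filter on low counts, and the cause was not tested. Outside the spleen and small intestine, H2-Oa had at most 20 counts and H2-DMb2 at most 93 counts in a library, which limits the precision of their values.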
